A study of Mus musculus with 54 samples.

Results

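The cells described here were 111 single bone marrow progenitors that carried transcripts of Flt3, out of 2732 unsorted myeloid progenitors with at least 500 unique molecular identifiers (UMIs, each the tag of 1 captured mRNA molecule) and out of 8399 such cells in the whole series. They were chosen from their own counts. A cell was taken if it had 1 or more Flt3 UMIs, if Car1 made up less than 0.1% and Elane less than 0.2% of its UMIs, and if Cd74, H2-Aa and H2-Eb1 together had 4 or fewer UMIs. Car1 marks cells on the erythroid path, Elane marks cells on the neutrophil path and the 3 remaining genes belong to MHC class II antigen presentation, so the limits set aside cells already far along those paths. The values of these 6 genes are given as a description and were not tested.

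Flt3 encodes a receptor tyrosine kinase on early blood progenitors whose ligand supports the development of lymphoid cells and dendritic cells. In the textbook order of mouse hematopoiesis, Flt3 appears as multipotent progenitors lose the capacity to form red cells and platelets, and it persists in progenitors of lymphoid and dendritic cells. Dntt, which adds nucleotides at the joints of rearranging antigen receptor genes, and Satb1, a chromatin organiser, are known as early signs of lymphoid priming. Irf8 is a transcription factor needed for monocyte and dendritic cell development.

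The cells were profiled with MARS-seq, in which single cells are sorted into wells, mRNA is tagged near its 3' end with a barcode for the well and with a UMI, and 192 wells are amplified together as 1 pool. Unsorted here means all Lin- cKit+ Sca1- cells of cKit-enriched bone marrow from wild-type C57BL/6 mice of 6 to 8 weeks, with no further gate. They filled 16 pools on 8 plates, all under 1 mouse identifier, so every p-value below measures the spread between amplification pools, which may be technical. Pools held 482844 to 854479 UMIs. Because wells carry fixed barcodes, all 192 barcodes recur in each of the 54 pools and do not mark shared cells. For comparison, 3 gates had been sorted in the same Lin- cKit+ Sca1- fraction at CD34+ FcgR(low), the common myeloid progenitor (CMP) gate, at the same age and on the same strain. The gate CMP Flt3+ Csf1r+ took wild-type cells positive for both receptors, the gate CMP Irf8-GFP+ MHCII+ took cells of Irf8-GFP mice positive for GFP and for MHC class II, and the gate CMP CD41 took CD41-positive wild-type cells. Each gate came from a mouse identifier of its own, and pools whose label and deposited table name different groups were not used here.

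The promoters of 4 genes are shown because the description turns on them. Flt3 chose the cells, Irf8 and Cd34 rose in them, and Dntt is a naming marker seen in a minority of them. Each sequence is the 250 bases before the gene's first start in RefSeq (GRCm38.p6, not the mm9 build of the counts), 5′ to 3′ on the strand of the gene: Flt3 at chr5:147400490-147400739 (minus), Irf8 at chr8:120736108-120736357 (plus), Cd34 at chr1:194938571-194938820 (plus) and Dntt at chr19:41029025-41029274 (plus). Capitals mark matches on either strand to GGAAGT, a core of ETS factor sites, TGTGGT, a core of RUNX sites, or AGATAA, a core of GATA sites.
Flt3: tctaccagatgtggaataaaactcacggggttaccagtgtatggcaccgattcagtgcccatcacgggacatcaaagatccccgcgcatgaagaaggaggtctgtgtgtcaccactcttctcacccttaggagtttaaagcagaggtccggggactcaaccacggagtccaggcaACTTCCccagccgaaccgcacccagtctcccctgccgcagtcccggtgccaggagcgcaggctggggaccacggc
Irf8: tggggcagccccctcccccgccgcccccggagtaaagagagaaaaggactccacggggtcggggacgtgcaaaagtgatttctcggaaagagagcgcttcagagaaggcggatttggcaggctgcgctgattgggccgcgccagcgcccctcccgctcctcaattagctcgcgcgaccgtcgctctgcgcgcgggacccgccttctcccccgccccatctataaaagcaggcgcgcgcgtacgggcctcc
Cd34: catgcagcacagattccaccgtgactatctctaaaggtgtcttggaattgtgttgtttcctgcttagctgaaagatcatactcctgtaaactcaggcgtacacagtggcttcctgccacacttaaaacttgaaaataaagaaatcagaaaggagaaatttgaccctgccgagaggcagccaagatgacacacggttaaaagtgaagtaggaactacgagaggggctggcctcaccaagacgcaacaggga
Dntt: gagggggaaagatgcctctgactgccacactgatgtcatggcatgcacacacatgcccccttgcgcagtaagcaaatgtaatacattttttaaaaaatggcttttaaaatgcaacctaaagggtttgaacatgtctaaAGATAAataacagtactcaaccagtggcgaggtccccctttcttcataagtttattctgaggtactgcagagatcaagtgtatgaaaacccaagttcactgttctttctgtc
Flt3 held 1 match to GGAAGT, 75 bases before its start, and Dntt held 1 match to AGATAA, 112 bases before its start. The windows of Irf8 and Cd34 held no match to the 3 motifs. Among 32851 promoter windows of the same length, 19.7% held GGAAGT, 14.0% held TGTGGT and 9.99% held AGATAA.

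Most of the chosen cells carried a single Flt3 molecule. Flt3 stood at 1 UMI in 70 cells, at 2 UMIs in 25, at 3 in 13, at 4 in 1 and at 6 in 2. Flt3 was detected in 172 unsorted cells, and 61 of them were set aside: 29 exceeded only the Car1 limit, 23 only the Elane limit and 6 only the MHC class II limit. The limits on Car1 and Elane cut through a continuum, since the highest Car1 share inside was 0.0994% and the lowest just outside 0.101%, and for Elane these were 0.199% and 0.224%. The MHC class II limit fell in a gap: the highest sum inside was 3 UMIs and the lowest outside 16 UMIs. Within the limits, 56 of the 111 cells had no Car1 UMI, 47 had no Elane UMI and 100 had none of the 3 MHC class II transcripts. The 32 wells that had received no cell held 1305 UMIs and no Flt3 UMI.

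The Flt3-expressing progenitors made up 4.06% of unsorted cells (95% exact binomial interval 3.35 to 4.87%). The share per pool was lowest at 0.599%, had a median of 4.35% and was highest at 6.30% (mean 4.07 ± 1.62%, SD, n = 16 pools). The pools held 1 to 11 such cells each, and the exact intervals of single pools were wide, from 0.0152 to 3.29% in the lowest pool and from 2.76 to 12.0% in the highest. The share was 3.86% in the 4 pools of sequencing batch SB17 and 4.13% in the 12 pools of batch SB19. Intervals cover counting error only.

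**Figure D1:**
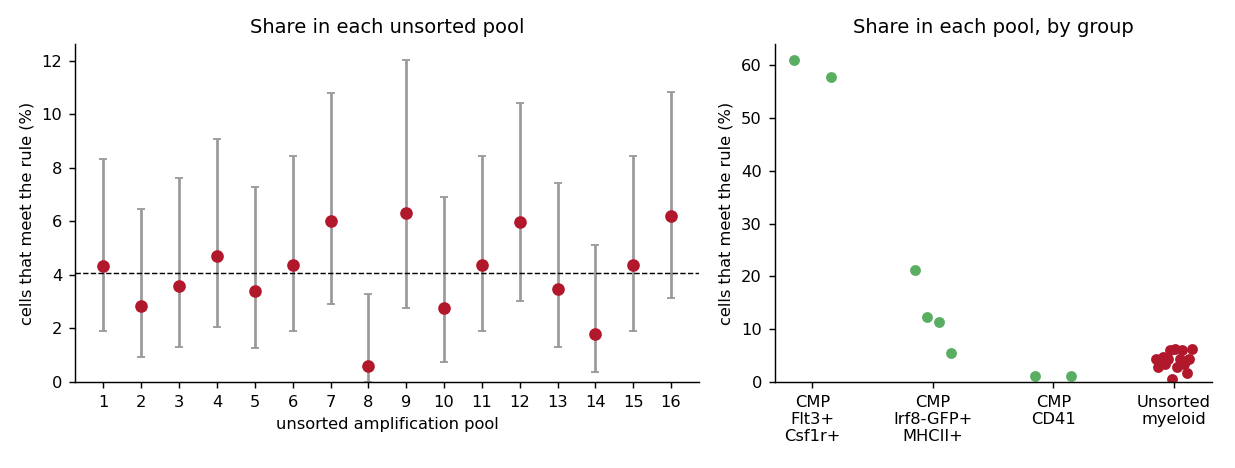
Left, the percentage of cells in each of the 16 unsorted pools that met the rule, with 95% exact binomial intervals, and the share over all pools (dashed line, 4.06%). Right, the same percentage in each pool of the sorted CMP gates and of the unsorted progenitors; both CMP Flt3+ Csf1r+ pools lie between 57.9 and 61.1%, above every unsorted pool.

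Depth differed between the sets of cells and bears on every share of cells with a UMI. The median was 2585 UMIs per cell in the Flt3-expressing progenitors, 1790 in the 526 Flt3-undetected cells that met the same Car1, Elane and MHC class II limits, and 3136 in all 2621 other unsorted cells. After each cell was thinned to 1000 UMIs, Flt3 was still seen in 50.9% of the 106 Flt3-expressing progenitors deep enough to be thinned. Flt3 had a UMI in 1.08% of cells rich in Car1 (median 4581 UMIs) and in 2.12% of cells rich in Elane (median 3009 UMIs).

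Of the other markers that give these cells their name, each was seen in a minority. Dntt had a UMI in 16 of 111 Flt3-expressing progenitors (14.4%), against 16 of 526 Flt3-undetected cells (3.04%), with 1.24% in Car1-rich and 2.59% in Elane-rich cells. Satb1 had a UMI in 32 Flt3-expressing progenitors (28.8%), against 41 Flt3-undetected cells (7.79%), with 1.54% and 6.84% in those Car1-rich and Elane-rich cells. After thinning, the shares for Dntt were 12.3% and 2.88%, and those for Satb1 16.0% and 4.32%, in the same order. At least 1 of these markers was seen in 41 Flt3-expressing progenitors and both in 7. The 111 cells held 44 of the 136 Dntt UMIs of all unsorted cells, in 10 of the 16 pools. Il7r, the receptor of committed lymphoid progenitors, was seen in 0 of 111 cells, for which the exact binomial interval reaches 3.27% of cells with a UMI, and Rag2 and Ccr9 had no UMI on either side in the 13 pools tested below. Il7r was also seen in only 1 of the 2621 other unsorted cells, so its absence is not particular to these cells. Rag1, a joined row, had a UMI in 11 of 111 Flt3-expressing progenitors (9.91%). It had a UMI in 16 of 526 Flt3-undetected cells (3.04%) and in 6.56% of all other unsorted cells. After thinning, these shares were 2.83%, 1.44% and 2.21%.

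To ask what else distinguishes these cells, their UMIs were summed per pool and set against those of the Flt3-undetected cells under the same limits, so that Flt3 was the only rule gene that differed by choice. The 13 pools with at least 5 Flt3-expressing progenitors were used (103 cells against 436). Transcripts of Irf8, the histone variant gene H2afy, the sialomucin gene Cd34 and several genes of lymphoid and leukocyte surfaces were higher, and transcripts of the erythroid and of the early Apoe and Gata2 program were lower. Of 858 genes tested with edgeR's quasi-likelihood test, 76 (8.86%) were higher and 54 (6.29%) were lower at a Benjamini-Hochberg adjusted p below 0.05. Levels below are CPM, UMI counts scaled to a common library size with the TMM method, and log2 ratios are Flt3-expressing over Flt3-undetected cells. The standard error (SE) of a log2 ratio was derived from edgeR's quasi-likelihood F statistic. It is not the observed spread of the ratios of single pools. With the plate as the unit, whose larger sums admitted 2274 genes, 141 (6.2%) were higher and 115 (5.06%) were lower, and genes too sparse for the pool test are quoted from it by name. Depth moved with the contrast: among cells of 2000 to 5000 UMIs on both sides, where 5 pools remained, 62 of 73 called genes that could be tested kept their direction and 5 were called, Car2, Coro1a, Cst3, H2afy and a joined immunoglobulin row. How far depth enters the other ratios was not tested.

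**Figure D2:**
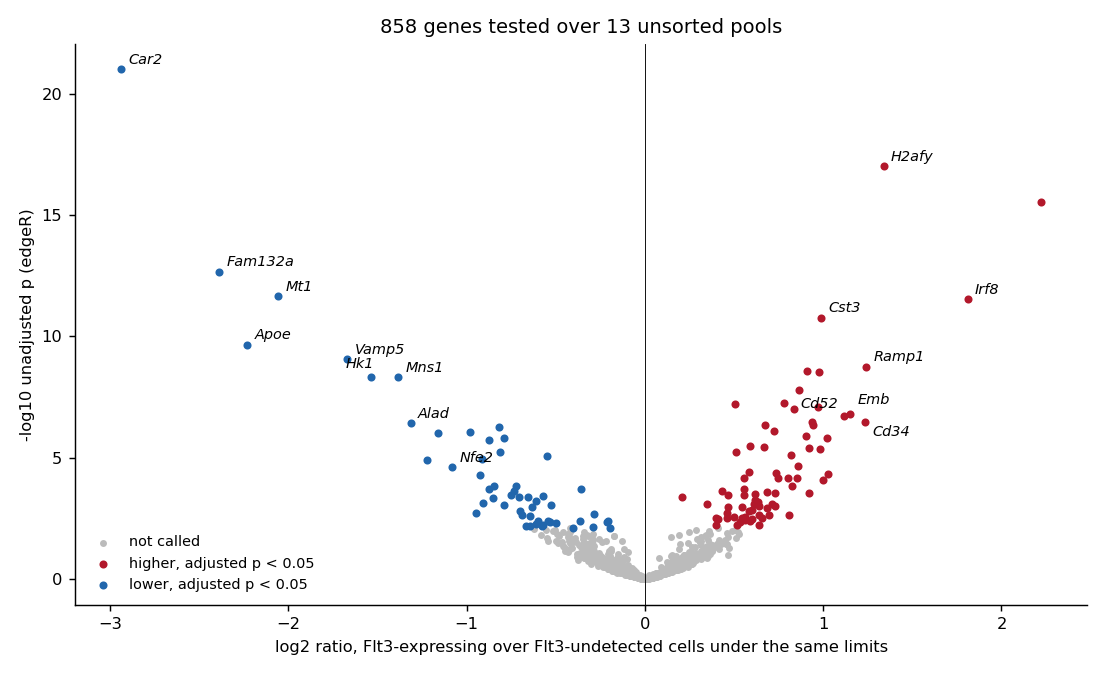
Each point is 1 of the 858 genes tested over 13 unsorted pools; the horizontal axis is the log2 ratio of Flt3-expressing over Flt3-undetected cells under the same limits and the vertical axis is -log10 of edgeR's unadjusted p. Irf8 and H2afy stand far to the right, Car2, Fam132a, Apoe and Mt1 far to the left, and the unlabelled point at a log2 ratio of 2.22 is a joined immunoglobulin row.

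Irf8 rose most among genes with a row of their own. It ranged over pools from 483 CPM through a median of 748 to 1217 CPM in Flt3-expressing progenitors, against 87.6, 230 and 525 CPM in Flt3-undetected cells, and it was higher in all 13 pools. The ranges overlapped at their edges only, and the log2 ratio was 1.81 (SE 0.18, adjusted p = 4.08e-10). Irf8 had a UMI in 63.1% of Flt3-expressing progenitors and in 23.2% of Flt3-undetected cells, or in 39.6% and 17.7% after thinning to 1000 UMIs. In those cells of 2000 to 5000 UMIs, the log2 ratio of Irf8 was 0.81 (adjusted p = 0.41).

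H2afy, which encodes the histone variant macroH2A, did not overlap between the sets. It ranged from 5410 through 6183 to 7847 CPM in Flt3-expressing progenitors, against 1212, 3035 and 4092 CPM in Flt3-undetected cells. Its log2 ratio was 1.34 (SE 0.09, adjusted p = 4.31e-15), and it remained called at 0.79 in cells of 2000 to 5000 UMIs (adjusted p = 0.00512). Ramp1, a partner protein of the receptors for calcitonin-family peptides, had 665, 1070 and 1512 CPM in Flt3-expressing progenitors, against 233, 439 and 710 CPM in Flt3-undetected cells (log2 ratio 1.24, adjusted p = 1.51e-07). Emb, an immunoglobulin-family membrane glycoprotein, and Cst3, the protease inhibitor cystatin C, rose by log2 ratios of 1.15 and 0.99 and were higher in all 13 pools. Coro1a, an actin-binding protein of leukocytes, Selplg, the selectin ligand PSGL-1, Pycard, the inflammasome adaptor, and Ptpn18, a tyrosine phosphatase, rose by log2 ratios of 0.97, 0.97, 0.98 and 0.94. The largest ratio of all tested rows, 2.22 (adjusted p = 8.09e-14), belonged to a row that joins Igh with other immunoglobulin symbols. It was singled out after its value was seen, and its reads cannot be assigned to a single gene.

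**Figure D3:**
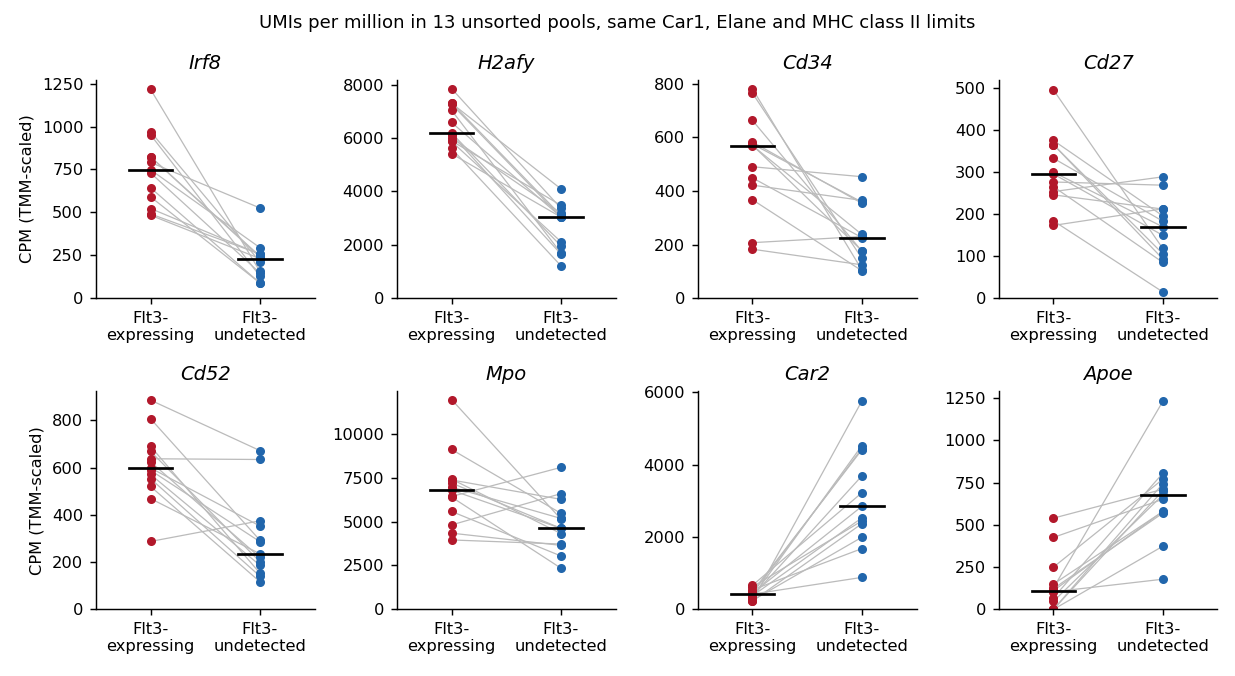
TMM-scaled CPM of 8 genes in Flt3-expressing progenitors (red) and in Flt3-undetected cells under the same limits (blue); each line joins the values of 1 of the 13 unsorted pools and black bars are medians. H2afy and Car2 do not overlap between the sets, and Irf8 is higher on the left in every pool.

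Genes of lymphoid priming that were abundant enough to test rose, while sparser ones went both ways. Of 18 listed genes, 2 passed the filter of the pool test and both rose, and with the plate as the unit 4 of 4 rose. Cd52, a small glycoprotein of lymphocyte membranes, had 288, 599 and 886 CPM in Flt3-expressing progenitors, against 117, 235 and 672 CPM in Flt3-undetected cells (log2 ratio 1.12, SE 0.18, adjusted p = 7.4e-06). Cd27, a receptor of the TNF receptor family on lymphoid-primed progenitors, had a log2 ratio of 1.00 (SE 0.23, adjusted p = 0.00132). Sox4, a transcription factor of early B cell progenitors, rose with the plate as the unit by a log2 ratio of 0.70 (adjusted p = 0.0152). Dntt and Satb1 were too sparse for either test, at 34 and 40 UMIs in the Flt3-expressing progenitors of the 13 pools against 29 and 40 UMIs in the Flt3-undetected cells. These sums correspond to 118 and 26.6 CPM for Dntt and to 139 and 36.6 CPM for Satb1, in the same order of cells. Equally untestable were Ets1, a transcription factor of lymphocytes, at 3.46 CPM in Flt3-expressing progenitors against 23.8 CPM in Flt3-undetected cells, and Lck, the T cell kinase, at 3.46 against 24.7 CPM, each from 1 UMI in Flt3-expressing progenitors. Bcl11a stood at 13.9 against 11.9 CPM and Notch1 at 3.46 against 3.66 CPM. Summed over the list, the level ran from 1439 to 2996 CPM in Flt3-expressing progenitors, against 292 to 1806 CPM in Flt3-undetected cells, and it was higher in all 13 pools. That sum includes Dntt and Satb1, which helped to name these cells, so it is a description.

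The list of stem and multipotent cell genes was mixed: of 2 genes tested with pools 1 rose, and of 3 tested with the plate as the unit 2 rose. Cd34, the sialomucin that marks hematopoietic progenitors, rose. It had 183, 570 and 782 CPM in Flt3-expressing progenitors, against 102, 226 and 453 CPM in Flt3-undetected cells, with a log2 ratio of 1.23 (SE 0.20, adjusted p = 1.26e-05). In cells of 2000 to 5000 UMIs its log2 ratio was 0.55 (adjusted p = 0.738). Gpr56, an adhesion receptor of stem cells, stood at a log2 ratio of -0.16 (adjusted p = 0.586), and Plac8 rose with the plate as the unit by 0.75 (adjusted p = 0.03). Genes of long-term stem cells were rare: Procr, Mecom and Slamf1 had 0 UMIs in the Flt3-expressing progenitors of the 13 pools, against 2, 6 and 1 UMIs in the larger sums of the Flt3-undetected cells. Meis1 had 27.7 against 37.5 CPM and Hlf 13.9 against 19.2 CPM, from 8 and 4 UMIs in Flt3-expressing progenitors, and the 95% counting intervals of both ratios included no difference.

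Among progenitor transcription factors, none of 6 tested with pools passed the test, and 2 of 11 fell with the plate as the unit. Myc, Myb, Lmo2 and Runx1 had log2 ratios of 0.19, -0.43, -0.39 and 0.39 in the pool test, with adjusted p of 0.513, 0.0966, 0.101 and 0.179. The genes that fell with the plate as the unit were Gata2 and Gfi1b, both transcription factors of the erythroid, megakaryocyte and mast cell paths, at log2 ratios of -2.21 (adjusted p = 5.54e-08) and -1.78 (adjusted p = 1.88e-05). Of 15 cytokine receptors none passed the filter of the pool test. With the plate as the unit Csf1r, the macrophage colony-stimulating factor receptor, and Cxcr4, the receptor of the marrow chemokine Cxcl12, rose by 1.43 (adjusted p = 1.44e-05) and 0.94 (adjusted p = 0.0199), and Ifngr1, a chain of the interferon gamma receptor, fell by 0.72 on the log2 scale (adjusted p = 0.0412). Epor, the erythropoietin receptor, had 17.3 CPM (5 UMIs) in Flt3-expressing progenitors against 158 CPM (173 UMIs) in Flt3-undetected cells.

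Monocyte and dendritic genes rose in part. Irf8 was the only 1 of 3 genes tested with pools that rose, and 4 of 7 rose with the plate as the unit, among them Ly86, a partner of the Toll-like receptor homologue RP105, at a log2 ratio of 1.20 (adjusted p = 0.000309). Ly6c2, a marker of monocytes with near-identical copies, had a log2 ratio of 0.47 (adjusted p = 0.308) and is uncertain. Genes that define mature dendritic cells were at or near zero: Siglech, Xcr1 and Batf3 had no UMI on either side in the 13 pools. Summed over the list, the level ran from 1459 to 3893 CPM in Flt3-expressing progenitors, against 904 to 2645 CPM in Flt3-undetected cells.

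Transcripts of primary granules, the enzymes that neutrophil and monocyte precursors store, were higher too, although Elane had been limited on both sides. Of 5 genes tested 4 rose: Igfbp4 by a log2 ratio of 0.82 (adjusted p = 0.000163), Prtn3 by 0.59 (adjusted p = 8.28e-05), Ctsg by 0.56 (adjusted p = 0.00107) and Mpo by 0.51 (adjusted p = 0.000128). Prtn3 encodes proteinase 3, Ctsg cathepsin G and Mpo myeloperoxidase, while Igfbp4 encodes a binding protein of insulin-like growth factors and is no granule enzyme. Mpo had 3954, 6790 and 11950 CPM in Flt3-expressing progenitors, against 2350, 4618 and 8086 CPM in Flt3-undetected cells, so the ranges overlapped. The direction depended on depth and comparator: in cells of 2000 to 5000 UMIs the log2 ratio of Mpo was -0.05 (adjusted p = 0.93), and over sums against all other unsorted cells, where the Elane limit held on the Flt3-expressing side alone, Mpo, Prtn3 and Ctsg were at -0.21, -0.38 and -0.37. The median cell went the other way in that comparison: Mpo made up 0.509% of UMIs in Flt3-expressing progenitors against 0.26% in all other unsorted cells, Prtn3 0.312% against 0.107% and Ctsg 0.181% against 0.0549%. At the 90th percentile Mpo reached 1.24% in Flt3-expressing progenitors and 2.28% in all other unsorted cells.

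Erythroid genes fell together. Of 20 listed genes all 3 tested with pools fell, and 12 of 12 fell with the plate as the unit. The filter can admit a gene through the Flt3-undetected side alone, where Klf1 and Gata1 below were higher. The count of 12 is therefore partly set by the filter. Car2, carbonic anhydrase 2, had the largest decrease of the pool test: it had 230, 422 and 665 CPM in Flt3-expressing progenitors, against 884, 2844 and 5751 CPM in Flt3-undetected cells, with no overlap (log2 ratio -2.94, SE 0.15, adjusted p = 8.73e-19). In cells of 2000 to 5000 UMIs its log2 ratio was -1.36 (adjusted p = 0.0244). Mt1, a metallothionein, and Nfe2, a transcription factor of red cells and platelets, had log2 ratios of -2.06 and -1.08. Klf1 and Gata1, the regulators of the erythroid program, fell with the plate as the unit by 2.82 (adjusted p = 4.2e-13) and 3.46 (adjusted p = 2.99e-08) on the log2 scale, at 62.4 and 13.9 CPM in Flt3-expressing progenitors against 537 and 199.6 CPM in Flt3-undetected cells. Among the 12 largest decreases of the pool test in rows of 1 symbol with 50 CPM or more that fell in at least 14 of 16 pools were also Fam132a, a secreted protein of the C1q family, at -2.39, Alad, an enzyme of heme synthesis, at -1.31, and Hk1, a hexokinase, at -1.53. Vamp5, Mns1, Mrpl52, Lgals9 and rp9 made up the rest of these decreases, from -1.67 to -0.91. Summed over the list, erythroid genes ran from 748 to 1619 CPM in Flt3-expressing progenitors, against 2594 to 14250 CPM in Flt3-undetected cells, although both sets had passed the same Car1 limit.

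Genes of other paths were also scarcer in Flt3-expressing progenitors. Apoe, the lipid carrier apolipoprotein E that marks an early Gata2-expressing state here, had 0, 111 and 540 CPM in Flt3-expressing progenitors, against 179, 677 and 1230 CPM in Flt3-undetected cells (log2 ratio -2.23, SE 0.265, adjusted p = 2.35e-08). Zfpm1, the cofactor of GATA factors, fell with the plate as the unit by 2.33 on the log2 scale (adjusted p = 8.98e-12). Megakaryocyte genes were too sparse to test with pools, and their sum ran from 184 to 608 CPM in Flt3-expressing progenitors, against 438 to 2739 CPM in Flt3-undetected cells. Pf4, platelet factor 4, had 3.46 against 268 CPM and Itga2b, a joined row that holds the CD41 gene, 6.93 against 117 CPM, from 1 and 2 UMIs in Flt3-expressing progenitors. Of basophil, mast cell and eosinophil genes 2 were tested and Srgn, the granule proteoglycan serglycin, fell (log2 ratio -0.29, adjusted p = 0.0461). Prss34, a basophil protease, and Prg2, an eosinophil granule protein, had 6.93 CPM each (2 UMIs) in Flt3-expressing progenitors, against 199 and 229.8 CPM in Flt3-undetected cells. Ccl5, a chemokine of T and NK cells, had 6.93 against 157 CPM. The Flt3-undetected cells therefore held cells with transcripts of these other lineages under the same limits, and the part of those cells in the ratios above was not tested.

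The remaining gene groups held few calls. Of 8 MHC class II genes outside the rule, H2-DMa, a peptide loading chaperone, was tested and rose (log2 ratio 1.03, adjusted p = 0.000781). Of 4 interferon-stimulated genes tested, Psmb8, an immunoproteasome subunit, rose (log2 ratio 0.84, adjusted p = 4.27e-06), while Ifitm3 and Ifitm2 stood at 0.27 and 0.01 (adjusted p = 0.411 and 0.981). Of 13 replication and mitosis genes tested, Mcm3, a subunit of the replicative helicase, rose (0.63, adjusted p = 0.00747) and Dut, a joined row, fell (-0.40, adjusted p = 0.0496), and the median log2 ratio was 0.02. Of 33 ribosomal protein genes tested, Rpl14 alone was called (-0.21, adjusted p = 0.0293), and the median was -0.07. The calls of Dut, Rpl14 and Srgn did not outlast leaving out single plates: Dut lost its call without any of plates 2, 3, 5, 6, 7, 8 and 9, Srgn without any of 3, 4, 5, 7, 8 and 9, and Rpl14 without any of 2, 3, 7 and 8. The median over all 858 genes was -0.01. Markers of B, T and NK cells had 10 of 18 rows at 0 in the Flt3-expressing progenitors, Cd79a, Pax5 and Cd3e among them, while Cd79b, the signalling chain of the B cell receptor, had 35 UMIs (121 CPM) against 52 UMIs (47.6 CPM) and did not enter the pool test.

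Against all other unsorted cells, which include those the limits removed, differences are a description, since the limits themselves separate the sides. Counted by size, 30 of 2703 genes (1.11%) were at least 2-fold higher over the 13 pools together and higher in each of them, with 100 CPM or more on the higher side, and 120 (4.44%) were lower by the same measure. The higher genes included Cd27 at 294 against 64.6 CPM, Cd34 at 521 against 113 CPM and H2afy at 6296 against 1798 CPM. Coro1a, Irf8, Ramp1 and Selplg were also among them and did not overlap over pools. The lower genes were led by erythroid genes the limit on Car1 had selected against, such as Klf1 at 60.9 against 702 CPM and Blvrb, a heme breakdown enzyme, at 81.2 against 858 CPM. Fcgr3, a gene of the Fc gamma receptors, had 30.5 against 147 CPM.

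Surface proteins measured at the sort did not enter the rule. Surface CD34 was higher on Flt3-expressing progenitors. The pool median of its fluorescence ranged from 106 through 275 to 427 units in Flt3-expressing progenitors, against 63.5, 98.0 and 253 units in all other unsorted cells, and was higher in 15 of 16 pools. The means were 260 ± 85.3 and 123 ± 64.0 units (SD, n = 16 pools), a difference of 138 (SE 17.6; exact two-sided sign-flip permutation test over pools, p = 6.1e-05, adjusted over 4 comparisons p = 0.000244, smallest possible p = 3.05e-05). Flt3-undetected cells under the same limits averaged 206 ± 74.8 units, lower by 54.8 (SE 16.4) than the Flt3-expressing progenitors and in 13 of 16 pools, with an exact permutation p of 0.00549 and an adjusted p of 0.011. That second difference was 38.1 units with an adjusted permutation p of 0.0828 in cells of 2000 to 5000 UMIs, and 26.8 units with an adjusted permutation p of 0.448 when 2 or more Flt3 UMIs were required. Within sequencing batches the 2 differences were 170 and 58.9 units in the 4 pools of SB17, where no permutation p can go below 0.125, and 127 and 53.5 units in the 12 pools of SB19.

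Surface FcgR, the pair of Fc gamma receptors that separates granulocyte and monocyte progenitors from CMP, passed no test in pool medians. Pool medians averaged 325 ± 196 units in Flt3-expressing progenitors, against 224 ± 79.5 units in all other unsorted cells (difference 101, SE 49.2, higher in 10 of 16 pools, adjusted p = 0.0831 by the exact permutation test). Against the Flt3-undetected cells, at 334 ± 150 units, the difference was -9.22 (SE 39.9, adjusted p = 0.822 by the same permutation test). Pool means gave another picture: they were lower by 375 units than in all other unsorted cells and by 217 units than in Flt3-undetected cells, with adjusted permutation p of 0.000183 and 0.00224. Over cells, the upper quartile of FcgR was 456 units in Flt3-expressing progenitors, against 624 in Flt3-undetected cells and 1198 in all other unsorted cells. Of the 110 Flt3-expressing progenitors with a CD34 value, 92.7% lay above the median of all unsorted cells, and of the 108 with an FcgR value 51.9% lay above its median.

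**Figure D4:**
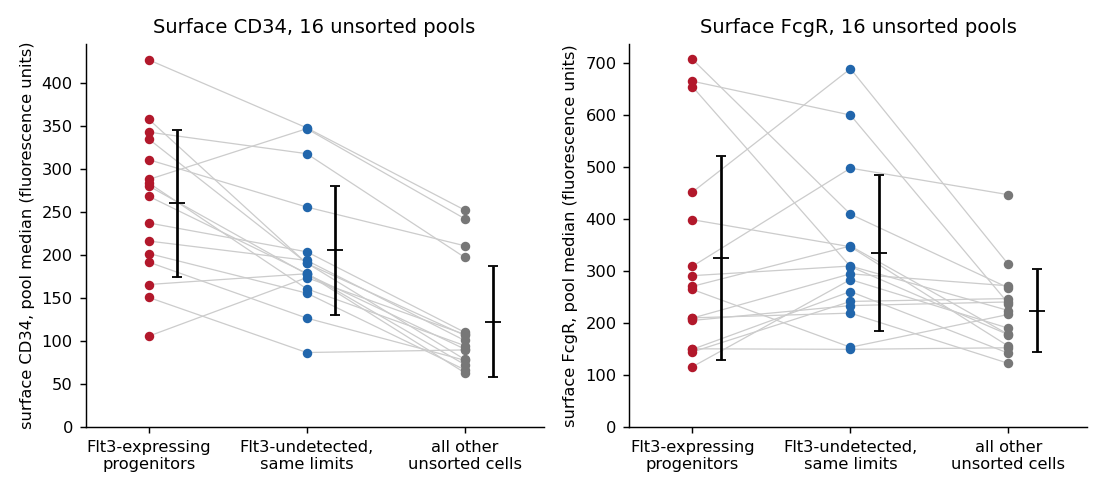
Pool medians of surface CD34 (left) and FcgR (right) fluorescence in Flt3-expressing progenitors, in Flt3-undetected cells under the same limits and in all other unsorted cells; lines join 1 pool, and black marks are the mean ± SD over 16 pools. CD34 averages 260, 206 and 123 units across the 3 sets, and the pool medians of both CD34 and FcgR overlap between the sets.

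The 111 cells varied among themselves. Irf8 was seen without Dntt in 60 cells, Dntt without Irf8 in 6, both in 10 and neither in 35. The 16 cells with a Dntt UMI held 727 CPM of Irf8, here without TMM scaling (95% exact Poisson interval 471 to 1073) and the 95 without held 743 (644 to 853), and these intervals overlapped. Mpo was at 3694 CPM (3080 to 4393) in cells with Dntt, against 7264 (6948 to 7591) in cells without, and these intervals did not overlap. Surface FcgR had a median of 91.0 units in 15 cells with Dntt, against 267 units in 93 cells without, and 13.3% and 58.1% of them lay above the median of unsorted cells. Median surface CD34 was 196 units in cells with Dntt and 267 units in cells without. Too few pools held 5 cells on each side for a test over pools, so these are values with counting error only, and depth differed, at a median of 2035 UMIs with Dntt and 2617 without. Cells with an Irf8 UMI held 298 CPM of Csf1r (229 to 382), against 128 (66.1 to 224) in cells without.

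The share of cells that met the transcript rule was also counted in the sorted gates. Only the CMP Flt3+ Csf1r+ gate was sorted on surface Flt3, and it required Csf1r as well. In the CMP Flt3+ Csf1r+ gate 226 of 380 cells (59.5%) met the full rule, in pools of 57.9 and 61.1%, against 4.06% of unsorted cells. A Flt3 UMI was seen in 63.7% of cells of that gate against 6.30% of unsorted cells. In the CMP Irf8-GFP+ MHCII+ gate 94 of 743 cells (12.7%) met the rule, although 64.2% had a Flt3 UMI, and that gate required MHC class II protein. In the CMP CD41 gate 4 of 336 cells (1.19%) did. These gates differ from the unsorted cells in mouse identifier and in the surface markers required, so the shares were not tested.

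The same comparison was made in the gates, where the sort had already narrowed both sides. All cells of the CMP Flt3+ Csf1r+ gate were sorted as positive for surface Flt3, its Flt3-undetected cells included. The gates also took only CD34+ FcgR(low) cells. The comparison therefore cannot decide whether the contrast of the unsorted pools recurs. In the 6 pools of the CMP Flt3+ Csf1r+ and CMP Irf8-GFP+ MHCII+ gates, 0 of 1440 genes were called between cells that met the rule and Flt3-undetected cells under the same limits by edgeR, while 69 had an unadjusted p below 0.05. Irf8 had 1143 and 1193 CPM in Flt3-expressing cells of the Flt3+ Csf1r+ gate, against 1154 and 1175 CPM in its Flt3-undetected cells. H2afy lay between 6198 and 7129 CPM there, against 6196 to 6594 CPM. Of the 130 genes called in unsorted pools 119 were tested in the gates. Of those that had risen, 34 of 75 were higher, with a median log2 ratio of -0.02 against 0.68 in unsorted pools, and of those that had fallen, 27 of 44 were lower, with a median of -0.06 against -0.66. The difference between the contrasts was itself tested as an interaction: 102 of 1948 genes (5.24%) differed at an adjusted p below 0.05, 62 with a higher ratio in unsorted pools and 40 with a lower one. H2afy differed by 1.17 (adjusted p = 9.1e-10) and Car2 by -2.87 (adjusted p = 8.71e-08) on the log2 scale. Car2 was too sparse for the gate test itself, at 39 UMIs in its lowest sum, so its difference rests on few gate counts. Irf8, Csf1r and Cd34 are no independent result here, because the gates were sorted on Irf8-GFP, on Csf1r and on CD34. On counts simulated with a common dispersion for all genes, the gate test recovered 98.7% of 2-fold changes. It tested 1437 genes there, among them 162 of the 200 changed genes, and recovery was counted over those that passed the filter. Changes smaller than 2-fold were not simulated, so its power for them is not known.

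**Figure D5:**
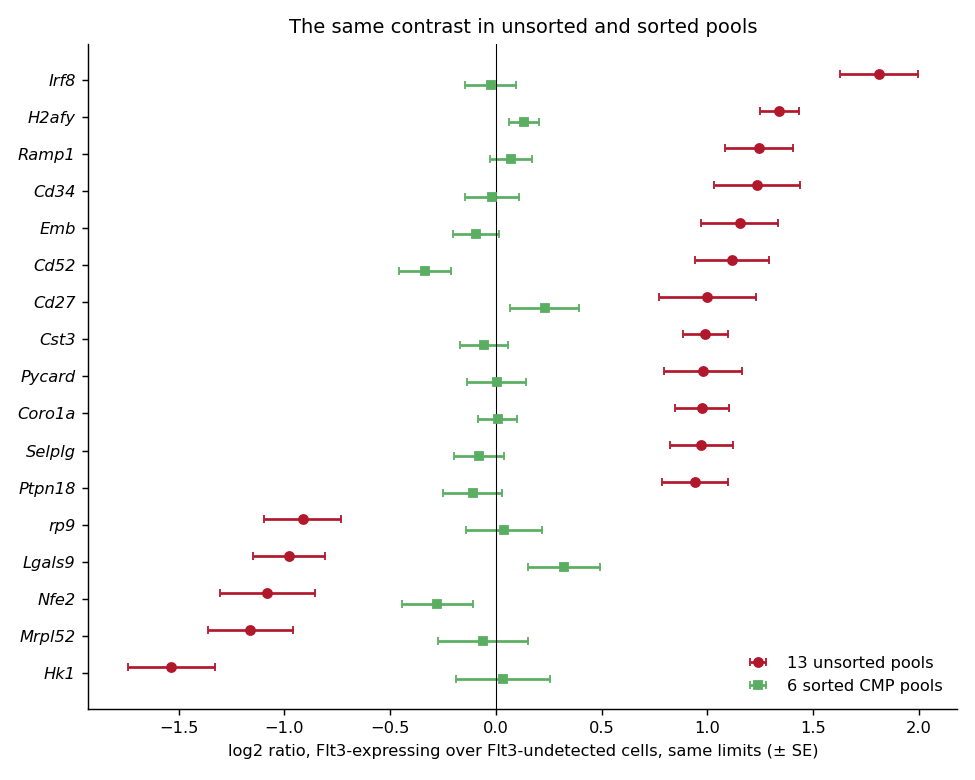
Log2 ratios (± SE) of Flt3-expressing over Flt3-undetected cells under the same limits in 13 unsorted pools (circles) and in 6 pools of the sorted CMP gates (squares), for those of the 12 higher and 12 lower genes of largest change that were tested in both. The squares lie near 0, between -0.33 for Cd52 and 0.32 for Lgals9, while the circles, chosen for their size, lie beyond 0.9 in either direction.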

How the data were processed

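The authors deposited a table of UMI counts for 27297 gene rows in 10368 wells, used here as raw counts, and a table of wells with pool, plate, sequencing batch, mouse identifier and, where a well was index-sorted, CD34 and FcgR intensity, deposited by the authors in linear fluorescence units with no stated scale. The build was mm9 and bcl2fastq had version 2.15.0.4, per the submitters' processing notes. An aligner was not given in the sources used here. The tags have 4 bases, so very abundant transcripts can be undercounted. Of the rows 2109 join several symbols. For 36 pools the label and the authors' table name the same group, all 16 unsorted pools among them, and pools where they differ were not used here.

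Single-cell wells with 500 or more UMIs were kept and chosen by the rule. UMIs were summed per pool and side. The tests used edgeR 4.0.16 in R 4.3.3 (TMM, filterByExpr with a minimum count of 10, pool as a block, Benjamini-Hochberg over all genes tested), with the 6 rule genes left out of the calls. DESeq2 1.42.0 was an alternative. The block came from the design, since both sums of a pool share a library. Surface values were compared by exact sign-flip permutation in scipy 1.17.1. Named genes included the 12 higher and the 12 lower with the largest log2 ratio among called rows of 1 symbol. Those rows also had to have 50 CPM or more and the same direction in at least 14 of 16 pools. Up to 4 genes per list and markers of cell types were named as well. Slamf1, Gfi1b, Rag1, Rag2, Ccr9, Il7r, Batf3, Pax5 and Fcgr3 were named after their values were seen. Some items are not reported here. The members and gene lists were chosen with earlier results of these data known. On counts simulated with a common dispersion for all genes, the pool test recovered 100% of 2-fold changes. It tested 875 genes there, among them 155 of the 200 changed genes, and smaller changes were not simulated. Recovery was counted over changed genes that passed the filter, so changes lost to the filter do not lower it. Of its calls 7.74% were unchanged genes, all of them lower. No doublet caller was run, since wells were sorted to hold single cells. Share intervals are exact binomial at 95%.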

Additional observations from a re-analysis of the deposited data

Results flagged for a closer look

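For 36 named genes the contrast between Flt3-expressing and Flt3-undetected cells under the same limits differed between the 13 unsorted pools and the 6 pools of the CMP Flt3+ Csf1r+ and CMP Irf8-GFP+ MHCII+ gates, by edgeR's test of the difference itself at an adjusted p below 0.05. Of 140 named genes tested 39 differed, against 102 of 1948 genes (5.24%) over all. Of those 39 genes, 3 with 3 or fewer UMIs in a sum were set aside, which left these 36. Of the 24 genes named for the largest change in unsorted pools 22 differed, and that choice favours a difference. Values are the log2 ratio in unsorted pools minus that in gate pools.

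Among regulators, receptors and surface genes the differences were 1.82 for Irf8, 1.34 for Satb1, 1.51 for Csf1r, 1.27 for Cd34, 1.44 for Cd52, 1.24 for Emb, 1.06 for Selplg, 1.17 for Ramp1 and 1.34 for Ly86. Satb1 helped to name these cells, and the gates were sorted on Irf8-GFP, Csf1r and CD34, so the values of Satb1, Irf8, Csf1r and Cd34 are a description and no independent result. Among other genes higher in unsorted Flt3-expressing cells, they were 1.17 for H2afy, 1.01 for Cst3, 0.952 for Coro1a, 0.961 for Pycard, 1.02 for Ptpn18, 0.768 for Psmb8, 1.53 for Lsp1, 1.57 for F13a1 and 1.35 for Slpi. In the primary granule list the differences were 0.698 for Mpo, 0.869 for Prtn3, 0.734 for Ctsg and 0.711 for Igfbp4.

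Among erythroid genes and those of the early Apoe and Gata2 list they were -2.87 for Car2, -2.96 for Blvrb, -1.49 for Mt1, -2.31 for Apoe, -2.32 for Gata2 and -1.68 for Zfpm1. Among the remaining genes lower in unsorted Flt3-expressing cells they were -1.31 for Alad, -2.18 for Fam132a, -2.18 for Vamp5, -1.57 for Hk1, -1.87 for Mns1, -1.11 for Mrpl52, -1.32 for Lgals9 and -0.966 for rp9. Car2, Blvrb, Mt1, Apoe, Gata2, Zfpm1, Alad, Fam132a, Vamp5, Mns1 and F13a1 did not pass the filter of the gate test. They entered the interaction test through the sums where they were higher, so their differences rest on low gate counts. The gates were sorted on surface markers and come from mouse identifiers of their own, which cannot be told apart from the gate. In the CMP Flt3+ Csf1r+ gate the cells on both sides were sorted as positive for surface Flt3. All these differences are therefore a description of unlike comparators.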

How the results depend on the processing

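The count of 76 higher and 54 lower genes was 141 and 115 with the plate as the unit, 275 and 566 against all other unsorted cells, whose sides the rule genes separate, and 122 and 243 with a minimum count of 2. It was 4 and 1 in cells of 2000 to 5000 UMIs, 5 and 1 with 2 or more Flt3 UMIs (3 pools), 3 and 5 in batch SB17 alone (4 pools) and 0 and 0 in the 6 gate pools. With no filter 624 were lower, and in simulated counts without a filter 31.5% of calls were unchanged genes; DESeq2 gave 34 lower. Without the replicate block the counts were 64 and 41, and leaving out each plate gave 53 to 82 higher and 38 to 57 lower. The minimum count of 2, the 16-pool and gate fits and the batch splits were chosen after seeing the data.

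For 90 named genes, 2009 comparisons left 1819 with the same direction and side of the threshold, and 18 reversed. In the gate pools the log2 ratios that reversed were 0.0323 for Hk1, 0.32 for Lgals9, 0.0387 for rp9, 0.0218 for Dut, -0.11 for Ptpn18, -0.0797 for Selplg, -0.0549 for Cst3, -0.33 for Cd52, -0.0935 for Emb, -0.0168 for Cd34, -0.0253 for Irf8, -0.22 for Mpo, -0.32 for Prtn3 and -0.22 for Ctsg. Mpo was -0.0541 in cells of 2000 to 5000 UMIs. Against all other unsorted cells, of which the Elane limit removed none, sums of Mpo, Prtn3 and Ctsg were at -0.21, -0.38 and -0.37, while per-cell medians were higher in Flt3-expressing progenitors for all 3. The cause of the other reversals was not tested.

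The share of 4.06% was 1.501% with 2 or more Flt3 UMIs and 2.23% after thinning to 1000 UMIs. Surface FcgR against Flt3-undetected cells was 5.19 units with plates, -217 with pool means, 3.90 in cells of 2000 to 5000 UMIs, and -35.5 to 7.71 leaving out each plate. Against all other unsorted cells it was -375 with pool means, -230.1 in cells of 2000 to 5000 UMIs and 66.5 to 123 leaving out each plate. Surface CD34 against Flt3-undetected cells was 38.1 in cells of 2000 to 5000 UMIs, 26.8 with 2 or more Flt3 UMIs and 58.9 in SB17, and against all other cells 169.6 in SB17, none past the threshold; leaving out each plate gave 44.3 to 62.9 and 125 to 153. The fit in Cebpa control pools and the test of cells with and without Dntt could not be made, since too few pools held 5 cells on a side.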

Other observations

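In the CMP Flt3+ Csf1r+ gate, Dntt had 111 and 116 CPM in Flt3-expressing cells, against 38.5 and 40.4 CPM in Flt3-undetected cells under the same limits. In the 4 pools of the CMP Irf8-GFP+ MHCII+ gate it ranged from 135 to 327 CPM in Flt3-expressing cells, against 47.9 to 1563 CPM in Flt3-undetected cells, and was higher in 3 of 4 pools. Satb1 had 213 and 231 CPM in Flt3-expressing cells of the Flt3+ Csf1r+ gate, against 154 and 162 CPM in its Flt3-undetected cells. These markers helped to name the cells, so their values in the gates are given without a test.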
